A study of Mus musculus with 3 samples.

Results

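The genes described here encode ion-coupled cotransporters and exchangers, the carriers that move sodium, chloride, bicarbonate, phosphate, sulfate, calcium and potassium across cell membranes by coupling one ion to another. They were chosen by symbol, as every gene of the Slc4, Slc8, Slc9, Slc12, Slc20, Slc24, Slc26 and Slc34 families that had a probe set annotated to it alone. This gave 46 genes read by 91 probe sets, of 18194 genes and 45101 probe sets on the array. Expression was measured in glomeruli isolated from 3 nondiabetic male FVB/NJ mice aged 8 weeks, the control strain of a study of diabetic OVE26 mice, with 1 array per mouse (n = 3). The glomeruli of each mouse were pooled before RNA extraction, the mice carried no transgene or treatment per the labels, and OVE26 mice were not analysed here. Values are log2 GCRMA expression values in the order mouse 1, mouse 2 and mouse 3, and a level can be set against the other mice but not against another gene, since probe sets differ in brightness.

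In the kidney, most of these carriers belong to the tubule. The proximal tubule reclaims sodium, phosphate and bicarbonate with sodium-phosphate cotransporters and sodium-hydrogen exchangers at the brush border and an electrogenic sodium-bicarbonate cotransporter at the basolateral side. The thick ascending limb takes up sodium, potassium and chloride together, the distal convoluted tubule takes up sodium with chloride, and intercalated cells of the collecting duct exchange chloride for bicarbonate. Other members keep volume and pH in nearly all cells. The members were therefore read in groups assigned from textbook knowledge, namely 7 genes of the proximal tubule, 5 of the thick ascending limb and distal convoluted tubule, 1 of the thin limb, 6 of intercalated cells, 10 widespread genes and 17 best known from other tissues. A glomerular isolate can hold tubule fragments, and in RNA from a pool of tissue fewer cells of a type and less RNA per cell cannot be told apart.

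The labelled tissue was checked against its markers. Signal above background was found in every mouse for all 5 podocyte, 6 endothelial and 3 mesangial genes measured, with ranges of at most 0.47, 0.52 and 0.48 between mice. Within these ranges all 5 podocyte genes were lowest in mouse 3. Of the 6 endothelial genes 4 were highest in mouse 1, and of the 3 mesangial genes 2 were highest in mouse 3. Background was the 95th percentile of 80 olfactory and vomeronasal receptor probe sets, at 2.58, 2.91 and 2.86. Markers of other cells were present too. Of 12 proximal tubule markers 11 were above background in all mice, and all 11 were highest in mouse 3 (median 2.58 above the mean of the other mice). Of 7 thick ascending limb markers 5 were, and all 5 were highest in mouse 2 (median 1.73 above the other mice). Leukocyte genes were highest in mouse 1 for 5 of 5 genes above background, whereas no principal cell marker of 7 was above background in all mice. The 3′ minus 5′ difference of the actin control, a sign of RNA quality, was 1.49, 1.81 and 2.05 in mice 1, 2 and 3, and that of Gapdh was 0.48, 1.08 and 0.92.

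A signal was found in these isolates for 23 of the 46 cotransporters and exchangers, which exceeded background in each of the 3 mice, against 58.3% of all genes on the array. A further 19 were below background in all mice, and 4 gave mixed calls. Where a gene had several probe sets, the one with the highest mean stood for it. The median range of these 23, highest minus lowest mouse, was 0.56 on the log2 scale, and that over all genes above background was 0.30 (interquartile range 0.17 to 0.50). A range of at least 2-fold was found for 7 of the 23 genes (30.4%), against 5.94% of all genes above background. These 7 were Slc4a4, Slc34a1, Slc9a3, Slc12a1, Slc9a2, Slc12a7 and Slc26a1. All 7 were lowest in mouse 1, as were 52.4% of the 630 genes with such a range; over all genes above background, 3.11% had both features. A limma test for excess variance over 10610 genes was run, and after Benjamini-Hochberg adjustment no member passed, nor did any other gene (0%). At an unadjusted p under 0.05 there were 5 members of 23, against 4.66% of all genes, namely Slc4a4, Slc12a1, Slc34a1, Slc9a3 and Slc9a2. The same count of 5 was found by limma without a trend and robust fit. On simulated data the test recovered 0% of genes whose SD was 4 times that of the rest and 52.0% of those at 32 times, so with 3 mice it had little power. The ranges below are therefore a description of these 3 mice.

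**Figure D1:**
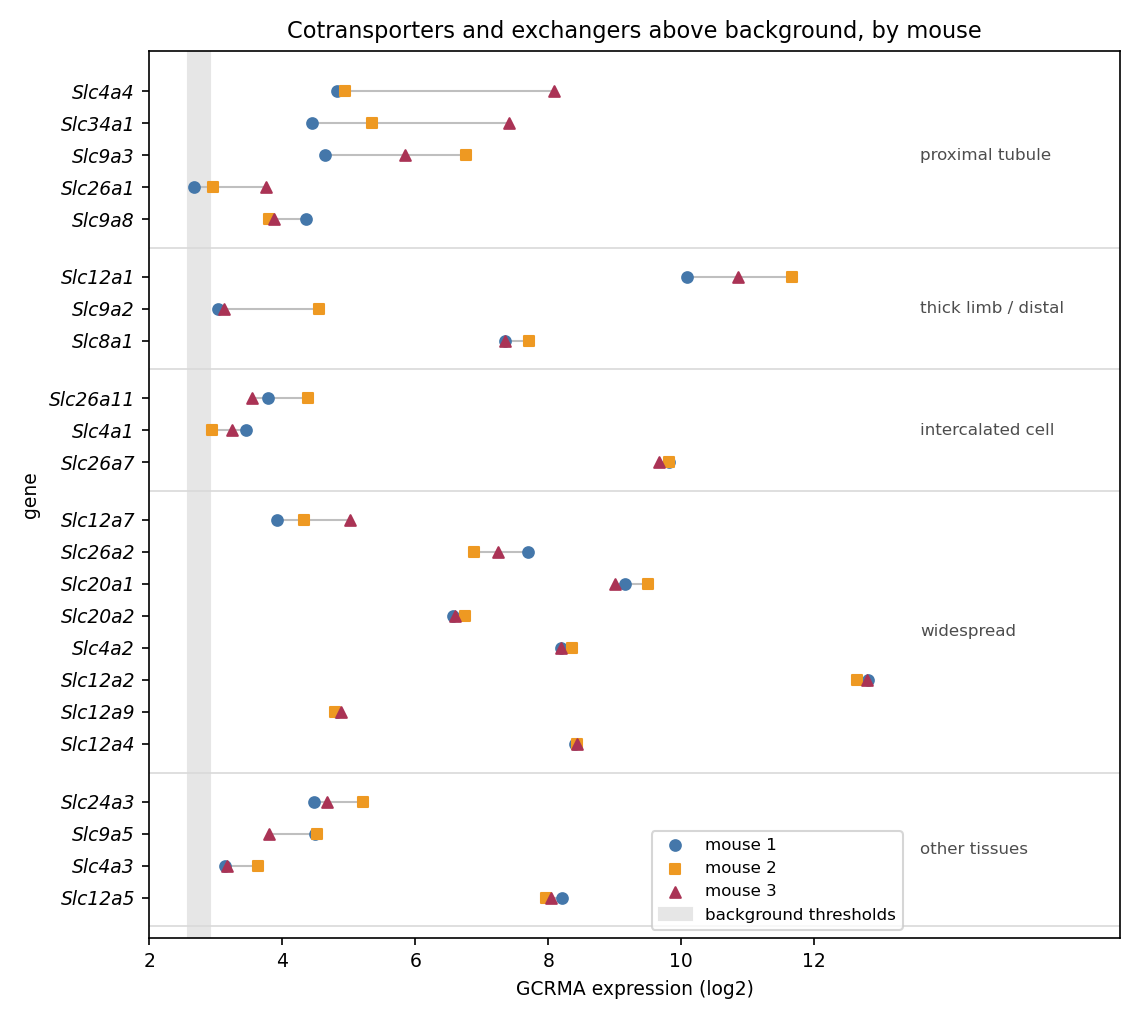
Log2 GCRMA expression (horizontal axis) of the 23 cotransporter and exchanger genes above background, with 1 point per mouse, a grey line from the lowest to the highest mouse, and genes grouped by tubule segment. The grey band spans the background thresholds of the arrays, 2.58 to 2.91; the points of Slc4a4, Slc34a1 and Slc9a3 spread widely, while those of Slc12a4, Slc12a9 and Slc26a7 nearly coincide.

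**Figure D2:**
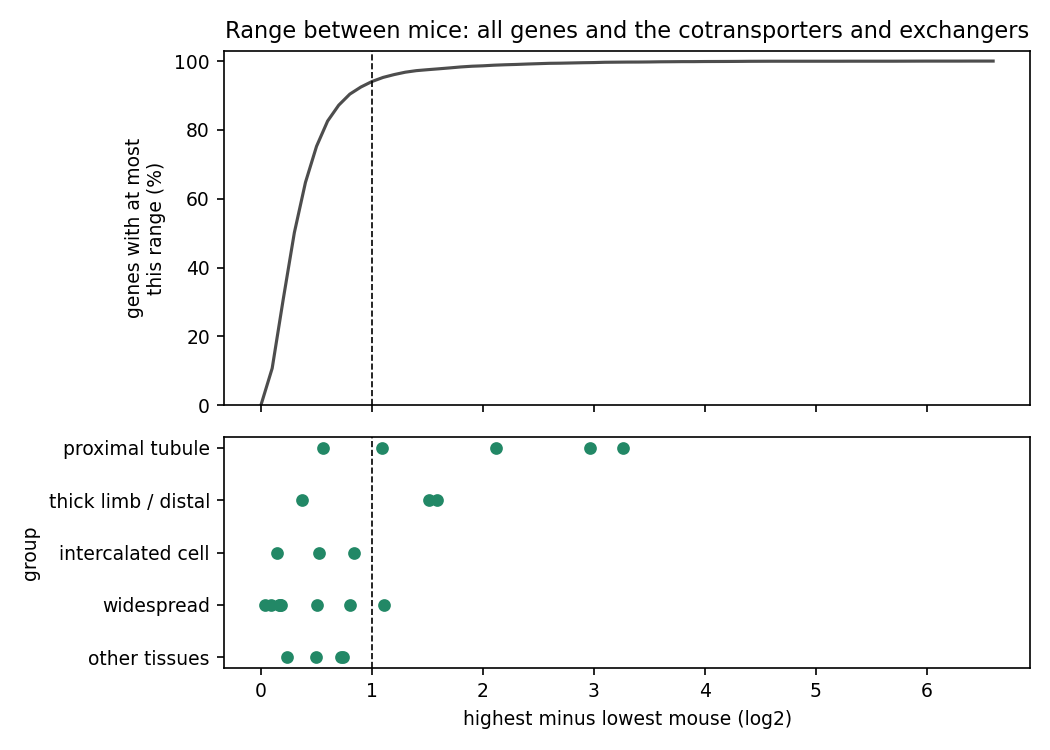
Top, share of the 10610 genes above background (vertical axis, percent) whose range between mice is at most the value on the horizontal axis (log2). Bottom, ranges of the 23 members by group, 1 point per gene. The dashed line marks the 2-fold range, passed by 4 proximal tubule members, 2 thick limb and distal members and 1 widespread member.

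Among proximal tubule members, 5 of 7 exceeded background in each mouse, against 58.3% of all genes. Of these 5, 4 had a 2-fold range, against 5.94% of all genes above background. Slc4a4, which encodes the electrogenic sodium-bicarbonate cotransporter NBCe1 that returns bicarbonate to the blood, had the widest range of all members. It was at 4.82, 4.94 and 8.09 (SD 1.85), so mice 1 and 2 lay close together and mouse 3 stood 8.88-fold above mouse 2. Its range of 3.27 exceeded that of 99.7% of genes above background (limma adjusted p = 0.650). The gene was read by 4 probe sets above background, and each was highest in mouse 3. Beside the values above, they were at 4.43, 4.47 and 7.93 and at 3.72, 3.77 and 6.19, and the last spanned 3.30 from its lowest mouse, mouse 2, to mouse 3. The separation of mouse 3 was therefore not that of 1 probe set. Another probe set was below background in all mice (1.69, 1.73 and 1.68). Without mouse 3 the range of Slc4a4 was 0.11.

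Slc34a1 encodes NaPi-IIa, the main sodium-phosphate cotransporter of the brush border and the target of parathyroid hormone and FGF23. It was at 4.44, 5.35 and 7.41 (SD 1.52), the same order of mice as for Slc4a4 but with mouse 2 further from mouse 1. The step from mouse 1 to mouse 2 was 0.91 for Slc34a1 and 0.11 for Slc4a4, and the step from mouse 2 to mouse 3 was 2.06 and 3.15. Its range of 2.96 had a limma adjusted p of 0.707, and without mouse 3 it was 0.91. The proximal tubule markers also differed in how mouse 2 lay. The megalin gene Lrp2 stepped by 0.39 and then 2.38, close to the shape of Slc4a4, and Cyp2e1 by -0.14 and then 3.59. The sodium-glucose cotransporter gene Slc5a2 stepped by 1.52 and then 0.67. All of these were highest in mouse 3, where the summed level of the 12 markers was 12.19 on the log2 scale, against 9.40 and 10.27 in mice 1 and 2, and their part in the values of Slc4a4 and Slc34a1 was not tested. The actin 3′ minus 5′ difference lay in the same order of mice (1.49, 1.81 and 2.05). That of Gapdh did not (0.48, 1.08 and 0.92), and the part of either was not tested.

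The start regions of Slc4a4 and Slc34a1 are shown because these genes had the widest ranges and the same order of mice, and because Slc4a4 is transcribed from more than 1 start. The sequences are from RefSeq (GRCm38.p6) and run from 250 bases before to 50 bases after the annotated start. All 3 lie on the plus strand. Capitals mark the motif GTTAAT, part of the site of HNF1, a homeodomain factor of the proximal tubule, on either strand.
Slc4a4 upstream start, chr5:88887010-88887309: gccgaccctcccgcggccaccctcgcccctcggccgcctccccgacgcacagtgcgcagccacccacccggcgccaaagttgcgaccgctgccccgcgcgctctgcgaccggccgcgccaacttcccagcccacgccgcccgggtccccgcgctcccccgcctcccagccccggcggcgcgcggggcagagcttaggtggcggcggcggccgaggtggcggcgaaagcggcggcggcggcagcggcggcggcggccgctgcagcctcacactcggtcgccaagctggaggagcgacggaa
Slc4a4 downstream start, chr5:89027716-89028015: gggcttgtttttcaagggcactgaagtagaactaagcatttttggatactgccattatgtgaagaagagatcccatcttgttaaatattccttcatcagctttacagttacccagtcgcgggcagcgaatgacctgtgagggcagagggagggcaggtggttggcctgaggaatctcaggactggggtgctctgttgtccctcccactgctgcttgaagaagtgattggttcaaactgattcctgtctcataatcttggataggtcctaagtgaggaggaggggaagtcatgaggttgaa
Slc34a1, chr13:55399398-55399697: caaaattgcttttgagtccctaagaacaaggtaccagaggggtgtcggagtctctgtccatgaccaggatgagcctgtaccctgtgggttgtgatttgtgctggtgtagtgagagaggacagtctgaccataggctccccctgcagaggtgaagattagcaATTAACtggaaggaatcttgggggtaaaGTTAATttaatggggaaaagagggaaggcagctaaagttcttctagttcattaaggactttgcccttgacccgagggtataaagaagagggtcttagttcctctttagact
The upstream window of Slc4a4 held 80.0% G and C and the downstream one 48.3%, against a median of 52.7% over 32851 windows of this length. The window of Slc34a1 held 46.7% and 2 motif matches, whose first bases lie 89 and 61 bases before the start, and neither window of Slc4a4 held one. GTTAAT was found on either strand in 7.10% of all windows and in 3 of 47 windows of the 36 members with an entry, those of Slc34a1, Slc12a8 and Slc26a3.  The HNF4 sequence CAAAGTCCA was in 0.475% of all windows and in no member window. A match is a description of the letters in the window only.

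The other proximal tubule members did not all follow mouse 3. Slc26a1, a sulfate-anion exchanger of the basolateral membrane, was at 2.66, 2.96 and 3.75, just above the thresholds in mice 1 and 2 and highest in mouse 3. Its range was 1.09 and was 0.29 without mouse 3. The other probe set of Slc26a1 was below background in all mice (2.33, 2.09 and 2.43), so this signal too rests on 1 probe set. Slc9a3, which encodes the sodium-hydrogen exchanger NHE3 found both in the proximal tubule and in the thick limb, was at 4.64, 6.76 and 5.85. It was highest in mouse 2 and lowest in mouse 1, with a range of 2.12 (limma adjusted p = 0.836), and without mouse 1 the range was 0.91. The signal rests on 1 probe set, as the other was below background in all mice (1.93, 1.76 and 1.91), and with both averaged the range was 0.97, under 2-fold. This is the order of the thick ascending limb markers and not that of Slc4a4 and Slc34a1. Slc9a8, which encodes NHE8, an exchanger of the brush border and of intracellular membranes, was at 4.36, 3.80 and 3.87 and thus highest in mouse 1. Its other probe set above background went the opposite way (2.74, 2.95 and 3.26), so no order is given for this gene. Slc34a3, the minor renal sodium-phosphate cotransporter, was below background in all mice (2.29, 2.55 and 2.64). Slc26a6, a chloride-oxalate and chloride-formate exchanger, was above it in mouse 1 alone (2.64, 2.83 and 2.76), where the threshold was lowest. The median over the 5 members above background was 0.94 higher in mouse 3 than the mean of the other mice, which hides that Slc9a3 was highest in mouse 2. With probe sets averaged per gene this median was 2.47, and with background at the 99th percentile it was 2.51, since fewer of these members passed. With no filter on dim genes, over all 7 members, it was 0.22.

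Members of the thick ascending limb and distal convoluted tubule were highest in mouse 2. Of 5 genes 3 exceeded background in each mouse, against 58.3% of all genes. All 3 were highest in mouse 2 (28.2% of all genes above background were), and 2 had a 2-fold range (5.94%). Slc12a1 encodes NKCC2, the furosemide-sensitive sodium-potassium-chloride cotransporter that defines the thick ascending limb. It was at 10.09, 11.68 and 10.85 (SD 0.79), so mouse 2 stood 1.59 above mouse 1 and mouse 3 lay between them (limma adjusted p = 0.707). This range was 0.83 without mouse 1 and 0.76 without mouse 2. The other probe set of Slc12a1 was above background in mouse 2 alone (2.26, 3.14 and 2.15) and lowest in mouse 3. The place of mouse 3 between the others thus rests on 1 probe set. Slc9a2, which encodes NHE2, an apical exchanger of the distal tubule and macula densa, was at 3.04, 4.55 and 3.12. Mice 1 and 3 lay close together near background and mouse 2 was 2.85-fold above mouse 1 (limma adjusted p = 0.922). Without mouse 2 its range was 0.08. Slc12a3, which encodes the thiazide-sensitive cotransporter NCC of the distal convoluted tubule, was at 2.36, 4.32 and 3.67. It was not above background in mouse 1 and was above it in mice 2 and 3, in the order of mice seen for Slc12a1. Slc9a4, the basolateral exchanger NHE4, was below background in all mice (1.82, 1.75 and 1.79).

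Slc8a1 encodes the sodium-calcium exchanger NCX1 of the distal and connecting tubule and of smooth muscle. Its brightest probe set had a range under 2-fold. That probe set was at 7.35, 7.72 and 7.35, a range of 0.37 with mice 1 and 3 level. Another was at 6.59, 6.63 and 5.61, where mice 1 and 2 lay close together and mouse 3 was lowest. The range of 1.02 in the second is thus that of a low mouse 3, although mouse 2 was highest in both. Smooth muscle genes were highest in mouse 2 for 3 of 3 genes above background and lowest in mouse 3 for all 3, with Acta2 at 10.54, 10.88 and 10.04. Beside the members of these segments, the 5 thick ascending limb markers above background were all highest in mouse 2 and lowest in mouse 1. Uromodulin (Umod) was at 12.47, 13.56 and 13.06, Kcnj1 at 6.36, 8.67 and 7.52 and Cldn10 at 4.88, 7.50 and 6.45. The summed level of the 7 markers with a probe set was 13.20, 14.29 and 13.74, of which Cldn19 and Bsnd were below background throughout. Markers of the distal convoluted and connecting tubule were split. Of 5 measured, 3 exceeded background in each mouse: Pvalb (2.83, 3.86 and 3.27) and Klk1 (10.97, 12.21 and 11.62) were highest in mouse 2, and Calb1 (3.80, 3.64 and 5.55) was highest in mouse 3 and lowest in mouse 2. S100g was at 4.20, 2.74 and 3.08, above background in mice 1 and 3, and Trpm6 was below it in all mice. Their summed level was 11.00, 12.23 and 11.65, close to the values of Klk1 alone, so it does not speak for the other markers. The Gapdh 3′ minus 5′ difference was also highest in mouse 2 (0.48, 1.08 and 0.92). That of actin was highest in mouse 3 (1.49, 1.81 and 2.05). The part of these markers and of either control was not tested.

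**Figure D3:**
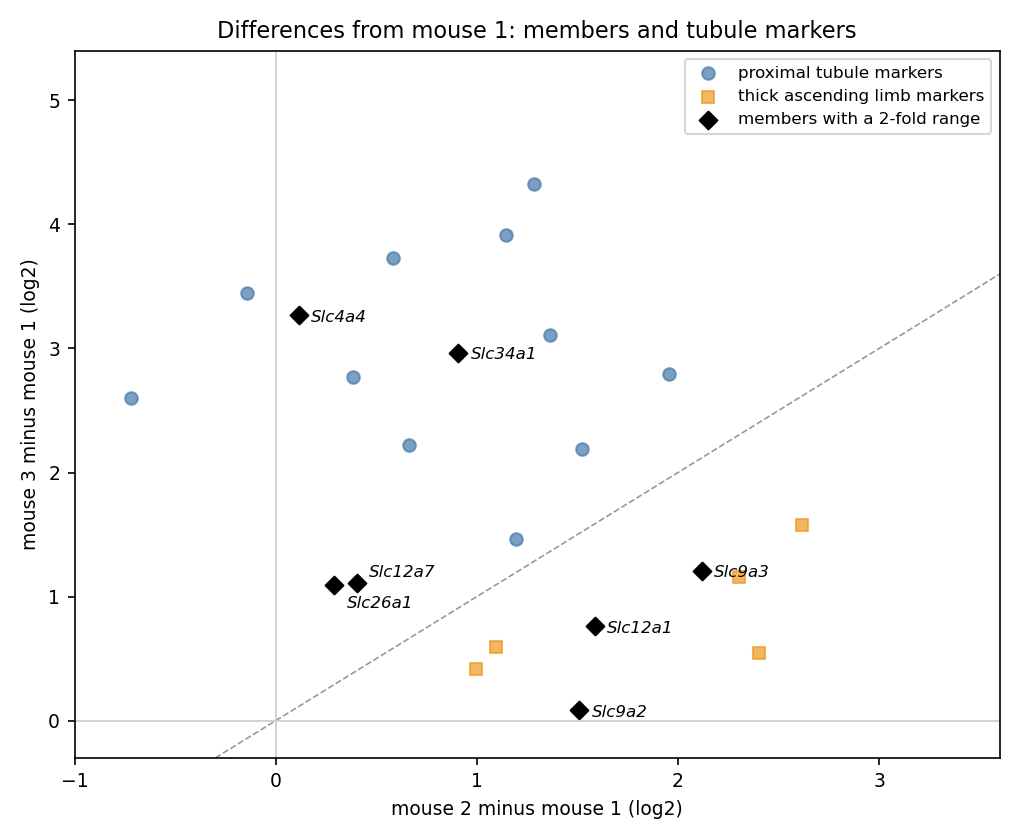
Difference of mouse 2 (horizontal axis) and of mouse 3 (vertical axis) from mouse 1, both in log2, for the 7 members with a 2-fold range (diamonds), 11 proximal tubule markers (circles) and 5 thick ascending limb markers (squares). The dashed diagonal marks equal values in mice 2 and 3; Slc4a4, Slc34a1, Slc26a1 and Slc12a7 lie above it with the proximal markers, and Slc9a3, Slc12a1 and Slc9a2 below it with the thick ascending limb markers.

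The intercalated cell members gave no 2-fold range. Slc26a7, a chloride-bicarbonate exchanger and anion channel known from acid-secreting intercalated cells, was well above background and nearly equal between mice, at 9.81, 9.81 and 9.67. Its other probe set was below background in all mice (2.27, 1.77 and 2.13), so the signal rests on 1 probe set. In the same isolates the intercalated cell markers Foxi1, Atp6v0d2, Aqp6 and Hmx2 were below background in all mice. Atp6v1b1 was the only one of the 5 markers with a probe set that was above it, at 3.76, 5.94 and 4.19. It was highest in mouse 2 with a range of 2.18, whereas that of Slc26a7 was 0.14. Slc26a11, a sulfate and chloride carrier, was at 3.78, 4.38 and 3.54, with mouse 2 highest. Slc4a1 encodes band 3, the anion exchanger AE1 of red cells and of acid-secreting intercalated cells, and lay near background at 3.46, 2.94 and 3.23. Of 4 erythroid markers with a probe set only Alas2 was above background in all mice (3.67, 3.40 and 3.25), and Epb42 and Hba-a1 were below it in all. Pendrin (Slc26a4), the chloride-bicarbonate exchanger of base-secreting cells, was at 1.88, 1.72 and 1.70, and Slc4a8 and Slc4a9 were also below background throughout. The thin limb member Slc4a11 was below background as well (1.66, 1.96 and 1.83).

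The widespread members had a median range of 0.17, against 0.30 over all genes above background. A signal was present for 8 of 10 genes, against 58.3% of all genes. Of these 8, 1 had a 2-fold range, against 5.94% of all genes above background. Slc12a2 encodes NKCC1, the form of the sodium-potassium-chloride cotransporter that most cells use to set volume and chloride, and was at 12.81, 12.64 and 12.80. Its other probe sets were at 10.60, 10.67 and 10.96 and at 10.27, 10.04 and 10.49, so no mouse was consistently highest. The potassium-chloride cotransporter gene Slc12a4 (KCC1) was at 8.41, 8.44 and 8.44, a range larger than that of only 1.62% of genes above background. Slc12a9, a relative with no settled substrate, was at 4.82, 4.80 and 4.89, and its dimmer probe set at 2.58, 3.41 and 2.89. The anion exchanger gene Slc4a2 (AE2) was at 8.19, 8.36 and 8.19. The sodium-phosphate cotransporters of the other family, Slc20a1 (PiT-1) and Slc20a2 (PiT-2), were at 9.15, 9.51 and 9.005 and at 6.57, 6.75 and 6.60. Neither shared the order of mice of Slc34a1, whose range of 2.96 compares with 0.50 and 0.18 for these genes.

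The only widespread member with a 2-fold range was Slc12a7, which encodes the potassium-chloride cotransporter KCC4, also known from the basolateral membrane of tubule cells. It was at 3.92, 4.32 and 5.02, in the order of mice of Slc34a1. Its range was 1.11 (limma adjusted p = 0.971) and was 0.40 without mouse 3. The other probe set of Slc12a7 was below background in all mice and highest in mouse 2. The signal and the order of mice of Slc12a7 thus rest on 1 probe set. The sulfate carrier gene Slc26a2 was at 7.69, 6.88 and 7.25, with mouse 1 highest. Its range of 0.80 was under 2-fold but exceeded that of 90.5% of genes above background. Its probe sets disagreed, as another was at 5.88, 5.92 and 6.23 with mouse 3 highest, and the third lay near background (3.08, 2.92 and 2.87). Slc20a1 also had a second probe set near background (3.08, 3.04 and 3.05). Of the 7 members with several probe sets above background, Slc4a4 and Slc8a1 had 1 mouse highest in all of them, and in Slc9a8, Slc12a2, Slc12a9, Slc20a1 and Slc26a2 the highest mouse differed. The organellar exchangers Slc9a7 and Slc9a9 were below background in all mice.

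**Figure D4:**
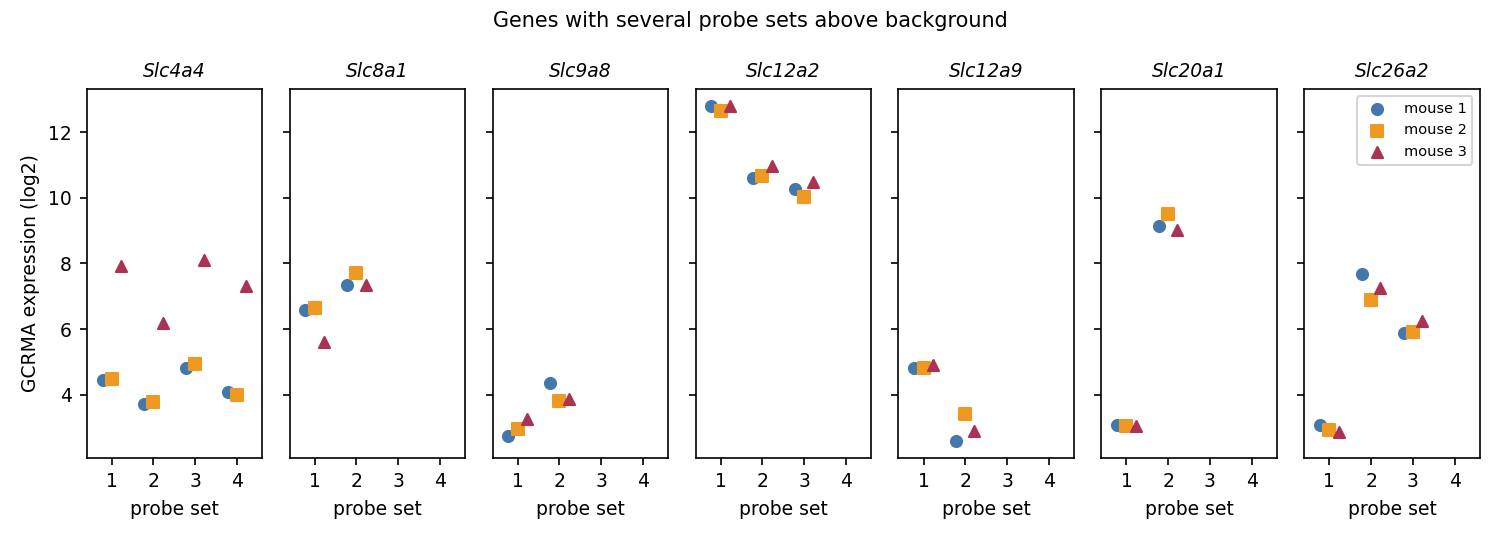
Log2 GCRMA expression (vertical axis) of each probe set above background in all mice, for the 7 members with several such probe sets, with 1 point per mouse. The number on the horizontal axis only names the probe set within its gene; mouse 3 stands above mice 1 and 2 in all 4 probe sets of Slc4a4.

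Members best known from other tissues were mostly dim. Of 17 genes 11 were below background in all mice and 2 gave mixed calls. The other 4 were above it in all mice, against 58.3% of all genes, with ranges of 0.23 to 0.74. Slc12a5 encodes KCC2, the potassium-chloride cotransporter of neurons, and was at 8.21, 7.97 and 8.05, far above the thresholds in every mouse. Its other probe set was below background in all (2.14, 1.98 and 2.47), so the signal rests on 1 probe set. Slc24a3, a potassium-dependent sodium-calcium exchanger, was at 4.48, 5.21 and 4.67, with mouse 2 highest. Slc9a5, which encodes NHE5, an exchanger known from brain, was at 4.49, 4.52 and 3.79, and here mouse 3 lay below the others. Slc4a3, the anion exchanger AE3 of heart and brain, was at 3.14, 3.64 and 3.17. The mixed calls were Slc34a2, the sodium-phosphate cotransporter of lung and gut (2.56, 3.03 and 2.56), and the brain sodium-bicarbonate transporter Slc4a10 (3.52, 2.92 and 2.75). The colonic exchanger Slc26a3, prestin (Slc26a5), Slc24a1, Slc24a2 and Slc24a4 were among those below background. All 19 members below background in every mouse had values between 1.35 and 2.69, where GCRMA gives many probe sets nearly the same value.

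Genes that regulate or work with these carriers were read from lists of 42 genes, of which 37 had a probe set and 33 were above background in all mice, where 58.3% of all genes were. A 2-fold range was found for 14 of the 33, and for 5.94% of all genes above background; the counts for each list below are to be read against these shares. Of the WNK and SPAK kinase pathway, which switches the Slc12 cotransporters on and off by phosphorylation, 12 of 13 genes had a signal above background, 2 of them with a 2-fold range. Wnk4 was at 3.68, 5.25 and 5.03, and Ppp1r1a, which encodes a phosphatase inhibitor, was at 5.09, 7.48 and 6.12, in the order of mice of Slc12a1. The other 10 had ranges from 0.10 to 0.95, against 1.59 for Slc12a1.

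Of the scaffolds and regulators of sodium-hydrogen exchange and phosphate transport, 10 of 12 genes had a signal above background, 3 of them with a 2-fold range. Pdzk1, a brush border scaffold that binds NaPi-IIa, was at 3.99, 4.46 and 6.82, in the order of mice of Slc34a1. The klotho gene Kl, the co-receptor of FGF23, was at 3.01, 5.58 and 5.47, and Tesc, which binds sodium-hydrogen exchangers, was at 4.32, 5.62 and 5.14. The scaffold genes Slc9a3r1 and Slc9a3r2, named here after their values were seen, were at 10.42, 10.27 and 10.40 and at 11.50, 11.54 and 11.59. Both were nearly equal between mice, while their partners Slc9a3 and Slc34a1 were not.

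Of the sodium pump and the potassium and chloride exit genes, 6 of 7 were above background, all 6 were lowest in mouse 1 (32% of all genes above background were), and 5 had a 2-fold range (5.94%). Atp1b1, a sodium pump subunit, was at 10.39, 11.94 and 11.51, and Fxyd2, its renal regulator, at 8.98, 10.28 and 10.22. The potassium channel genes Kcnj15 (4.68, 5.08 and 7.45) and Kcnj16 (4.64, 5.58 and 6.30) were highest in mouse 3, and Kcnj1, given above as a thick ascending limb marker, was highest in mouse 2. All 5 carbonic anhydrase genes, whose enzymes supply bicarbonate and protons to the exchangers, had a signal above background, 4 of them with a 2-fold range. Car2 (6.18, 7.65 and 7.95), Car4 (3.57, 3.44 and 4.75) and Car14 (2.68, 3.05 and 3.80) were highest in mouse 3, and Car15 (7.66, 9.88 and 8.75) was highest in mouse 2.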

How the data were processed

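RNA from isolated glomeruli of 3 FVB/NJ mice was hybridised to 1 Affymetrix array per mouse. The authors deposited log2 values summarised with GCRMA, per the submitters' processing notes; its version, and which arrays were normalised together, are not given in the sources used here. That the scale is log2 follows from the values alone (0.67 to 14.76). No further normalisation was applied, and 0 columns of values were left unused. Of 45101 probe sets, 34958 had 1 gene symbol in the platform annotation, 932 had several and 9211 had none listed; genes were named only from the first kind. Excess variance was tested with limma 3.58.1 in R 4.3.3 on genes above background, setting each variance against the fitted F distribution (trend on mean level, robust, one-sided, Benjamini-Hochberg at 0.05), and was tested on simulated data. Other steps used Python 3.11.15.

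Each mouse is the replicate, and the number of arrays limits the precision. The members, their segments and the other lists were chosen with earlier results of these data known. Values by mouse are given for members above background that had a 2-fold range, belonged to a tubule segment or had disagreeing probe sets. The remaining members were named after their values were seen. Of the other pathway genes, those with a 2-fold range are named. Slc9a3r1 and Slc9a3r2 had no such range and were named after their values were seen. The alternatives were the mean over probe sets, background at the 99th percentile, no filter on dim genes, quantile normalisation, centring of arrays, leaving out each mouse, and limma without trend and robust fit.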

Additional observations from a re-analysis of the deposited data

How the results depend on the processing

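The count of members with a 2-fold range was 7 of 23 (5.94%), where brackets give the share over all genes that passed in the same setting. With probe sets averaged per gene, which brings dim probe sets in, it was 4 of 17 (4.28%). This left Slc12a1, Slc34a1, Slc4a4 and Slc9a2, and the range of Slc9a3 was 0.97. Leaving out 1 mouse gave counts from 3 to 5, with each range taken over 2 mice only. Without mouse 1, Slc4a4, Slc34a1 and Slc9a2 remained, 3 of 24 (3.01%). Without mouse 2, Slc4a4, Slc34a1, Slc26a1, Slc12a7 and Slc9a3 remained, 5 of 23 (3.43%). Without mouse 3, Slc12a1, Slc9a3 and Slc9a2 remained, 3 of 24 (2.97%). Background at the 99th percentile left 5 of 18 (5.02%), and no filter gave 8 of 46 (4.21%). Quantile normalisation and centring gave 7 of 23 each (5.77% and 5.96%). The median of proximal tubule members in mouse 3 (0.94) was 2.47 with the mean over probe sets and 2.51 with background at the 99th percentile, but 0.22 with no filter on dim genes; leaving out mouse 1 or mouse 2 gave 0.80 to 1.20. The median of thick ascending limb and distal members in mouse 2 (1.21) stayed between 0.74 and 1.51 over all alternatives run. The median range of widespread members (0.17) lay between 0.051 and 0.172 when 1 mouse was left out and reached 0.23 after centring. No setting gave a member with excess variance by limma after adjustment. At an unadjusted p under 0.05 the lowest count was 3, of 23 members without mouse 2 and of 24 without mouse 3. The highest was 6 of 46 with no filter. In the main setting it was 5 of 23, against 4.66% of all genes, and that share is given for the main setting only. No paired analysis was possible because there was only 1 group. Genes near the background thresholds, such as Slc26a1 and Slc9a2, have the least reliable values.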
